A study of Mus musculus with 8 samples.

Results

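Contactins and contactin-associated proteins are neuronal adhesion molecules, and 10 of their genes were followed through the cell types of the striatum in 8 inbred mouse strains. The genes are Cntn3, Cntn4, Cntn5, Cntn6, Cntnap2, Cntnap3, Cntnap4, Cntnap5a, Cntnap5b and Cntnap5c, of 32285 genes in the deposited count matrices. They were taken by name and read in all 18 clusters of the deposited annotation. Cntn4 in astrocytes and Cntnap3 in projection neurons were picked on their strain patterns in these same data, so their values there are a description with no test of strain differences.

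Contactins are immunoglobulin-domain proteins held in the outer leaflet of the plasma membrane by a glycolipid anchor. Contactin-associated proteins are single-pass membrane proteins related to neurexins. At the node of Ranvier, contactin-1 pairs with Cntnap1 to form the paranodal junction with glial neurofascin, and contactin-2 pairs with Cntnap2 to hold Kv1 potassium channels beside it. Contactins 3 to 6 bind the receptor phosphatase Ptprg, and contactin-4 also binds the amyloid precursor protein. Cntnap4 is known from synapses of inhibitory interneurons. Cntnap5a, Cntnap5b and Cntnap5c are mouse paralogs of one another.

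The data come from 10x Multiome, which reads RNA and open chromatin from the same nuclei. Striatum was taken at 12 weeks from mice of 5 laboratory strains (A/J, C57BL/6, 129S1/SvImJ, NZO/HlLtJ and NOD/ShiLtJ) and 3 wild-derived strains (PWK/PhJ, WSB/EiJ and CAST/EiJ). The C57BL/6 substrain is written C57BL/6NJ in the deposited cell table and C57BL/6J in the series' design text. Each of 4 batches pooled 1 mouse of each strain, so that batch and mouse number coincide, and nuclei were assigned to strains by genotype. This gives 32 mice, with n = 4 per strain, and the labels name no treatment and no engineered allele. Batches held males and females in equal number. The sex of each mouse is not given in the sources used here, so no sex term was fitted, and the sexes may be uneven among the 4 mice of a strain.

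The matrices hold 89339 barcodes, of which 55672 are in the annotated cell table. Median depth of these nuclei was 3232 to 4931 UMIs per batch. Across batches, 1517 of 54141 barcode strings occurred more than once. Neuron markers summed to 7269.6 CPM (counts scaled to 1000000 per library) in Drd1+ neurons against 282 in oligodendrocytes, 383 in astrocytes and 346 in macrophages. Endothelium and mural cells carried 2582 and 4606 CPM of the same neuron markers, against 3756 CPM of mural markers in mural cells. The fibroblast cluster had 1568 CPM of fibroblast markers, below its 3049 of oligodendrocyte, 1812 of astrocyte and 1655 of mural markers. Counts were summed per mouse and cluster, and 9 clusters had at least 3 mice of every strain with 10 nuclei or more. These libraries held 1710451 to 9416806 counts in Drd1+ neurons, 165465 to 1883033 in oligodendrocytes and 38252 to 1085998 in astrocytes. A lower level can reflect fewer transcripts per nucleus or a changed mix of nuclei within a cluster, which sums cannot tell apart. Counts come from the mm10/GRCm38 build, and the part of read mapping in the strain differences was not tested.

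All 10 genes are long. On GRCm38.p6 they span 166 kb (Cntnap3, chr13:64737591-64904029) to 2241 kb (Cntnap2, chr6:45060061-47301393), and 4 lie on chromosome 6. Cntn3 lies at chr6:102163304-102564614, Cntn4 at chr6:105677632-106700141 and Cntn5 at chr9:9634223-10904775. The deposited open-chromatin peaks numbered 5.12 to 14.1 per 100 kb of these loci, against a median of 17.6 over the 2427 genes of at least 100 kb. RefSeq promoter windows, from 250 bases before to 50 after a start, were found for 7 members (10 windows). Cntnap4, Cntnap5a and Cntnap5c had no entry. Of the 10 windows, 6 overlapped a peak (both of Cntn4, both of Cntn5, that of Cntn6 and 1 of the 2 of Cntnap2), as did 53.1% of all 32851 windows. The 3 windows printed belong to Cntn3 and to the picked genes Cntn4 and Cntnap3. They read 5′ to 3′ on the gene's strand, with CG dinucleotides in capitals.

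Cntn3, chr6:102464618-102464917, minus strand: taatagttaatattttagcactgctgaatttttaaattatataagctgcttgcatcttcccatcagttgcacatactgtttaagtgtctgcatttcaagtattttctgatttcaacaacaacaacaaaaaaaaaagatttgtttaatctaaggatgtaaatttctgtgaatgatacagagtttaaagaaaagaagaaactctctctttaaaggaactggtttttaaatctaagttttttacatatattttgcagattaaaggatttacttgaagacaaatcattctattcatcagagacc
Cntn4, chr6:106118515-106118814, plus strand: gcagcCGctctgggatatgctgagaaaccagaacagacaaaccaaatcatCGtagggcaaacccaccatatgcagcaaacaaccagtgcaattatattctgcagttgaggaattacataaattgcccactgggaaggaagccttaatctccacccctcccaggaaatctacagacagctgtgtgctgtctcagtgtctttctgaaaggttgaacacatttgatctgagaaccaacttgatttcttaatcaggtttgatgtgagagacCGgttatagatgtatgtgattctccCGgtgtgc
Cntnap3, chr13:64903839-64904138, minus strand: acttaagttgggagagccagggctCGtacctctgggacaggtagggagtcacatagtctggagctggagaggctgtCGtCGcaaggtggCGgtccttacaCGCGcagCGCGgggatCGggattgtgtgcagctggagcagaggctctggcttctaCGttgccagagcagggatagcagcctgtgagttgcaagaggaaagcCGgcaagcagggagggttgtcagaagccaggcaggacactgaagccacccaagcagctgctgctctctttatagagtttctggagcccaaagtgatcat

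The Cntn3 window has 0 CG dinucleotides and its start lies inside the locus, with the nearest peak centre 14245 bp away. The printed Cntn4 window has 4 and overlaps a peak at chr6:106118175-106119173. The other Cntn4 window, at chr6:106118692-106118991, has 12 CG and overlaps the same peak, and both Cntn4 starts lie inside the locus. The Cntnap3 window has 11 and its nearest peak centre is 623 bp away. The median over all windows was 7 CG. Each window was searched on both strands for TATAAA (the TATA box) and CACGTG (an E-box), which do not overlap one another. Among the members TATAAA occurred in the Cntnap3 window alone, on the strand opposite to the gene, and in 13.6% of all windows. CACGTG was in no member window and in 7.15% of all windows.

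Over all strains, each of the 10 members had its highest level in a cluster of neurons. Cntn3 in oligodendrocytes and Cntn4 in astrocytes, described by strain further on, were high in glia of some strains. Levels are means ± SD over 4 batches, all mice of a batch summed, and are a description, since the clusters were built from the same genes. Cntnap2 reached 4618 ± 277 CPM and Cntn5 3339 ± 109 CPM in Drd2+ neurons. Cntn4 reached 1588 ± 41.6 CPM there. Per kilobase of gene, Cntn5 stood at 2.63 and Cntnap2 at 2.06 CPM per kb in Drd2+ neurons, the reverse of their order in CPM. Whether these UMI counts grow with gene length was not tested.

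Interneurons held the highest level of 7 members. Nxph1+ interneurons, a broad class of inhibitory local neurons, had the highest level of Cntn3 (355 ± 73.1 CPM), Cntnap3 (176 ± 57.2), Cntnap4 (414 ± 71.1), Cntnap5a (749 ± 147) and Cntnap5b (358 ± 24.8). Cntnap4 followed in Sst+ interneurons at 355 ± 74.8 CPM, whereas it stood at 6.89 ± 0.282 in Drd1+ neurons. Cntnap3 in Drd1+ neurons, at 165 ± 7.99 CPM, lay within the batch range of the Nxph1+ value. Cntn6 was highest in Chat+ interneurons, the cholinergic cells, at 249.98 ± 64.4 CPM. Cntnap5c was highest in Sst+ interneurons at 325 ± 42.4 CPM and reached 192 ± 13.4 in Drd1+ neurons. The highest cluster of Cntn4, Cntnap5a and Cntnap5c did not overlap the next one over batches, and those of the other 7 members did.

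In mural cells Cntn5 was listed at 2052 ± 185 and Cntnap2 at 2649.6 ± 425 CPM, and in endothelium at 1363 ± 856 and 1706 ± 828. Neuron marker sums were 4606 CPM in mural cells and 2582 in endothelium, and their part in these levels was not tested. In fibroblasts, with 132 nuclei, Cntnap4 and Cntnap5c had no count in the cluster so labelled, which allows a share of nuclei with a UMI of up to 2.27% and a level of up to 11.8 CPM. Intervals and floors cover counting error only.

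**Figure D1:**
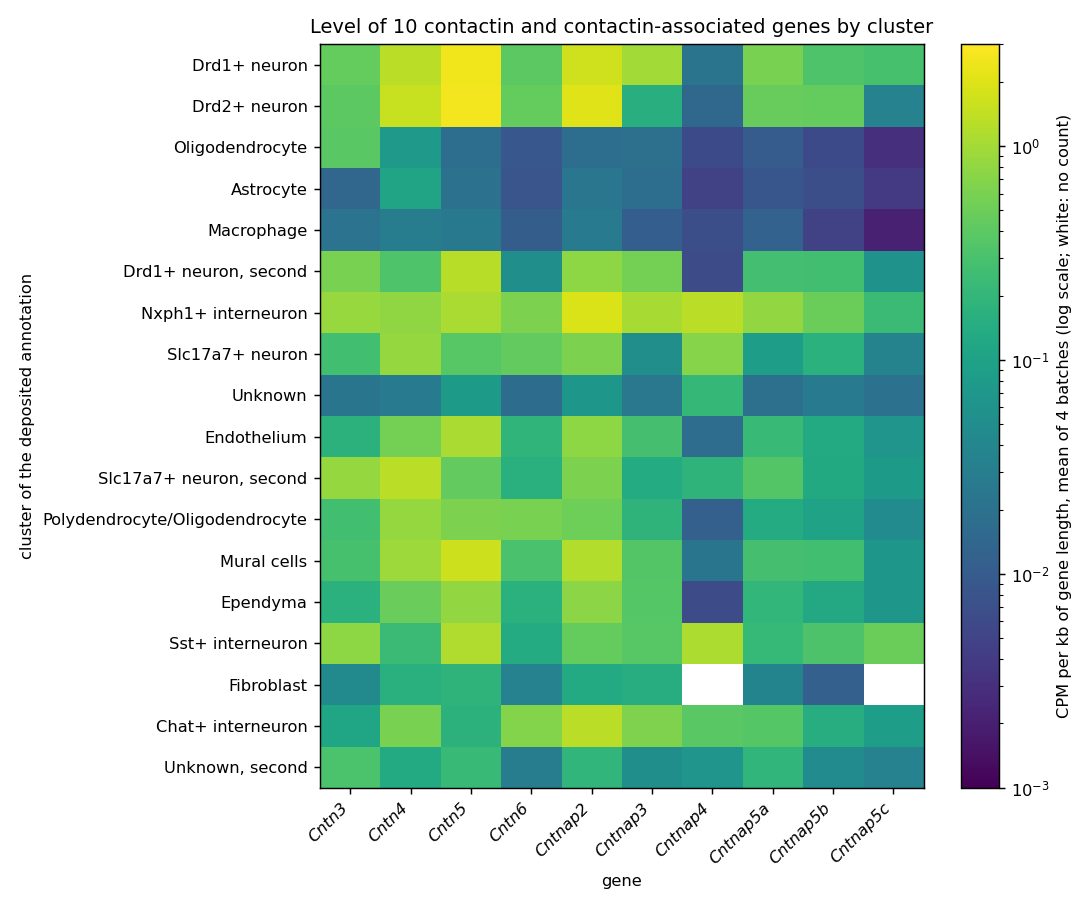
Level of each member (columns) in each of the 18 annotated clusters (rows), as CPM per kb of gene, mean of 4 batches, on a log colour scale, with white for no count. Cntn5 is brightest in Drd2+ neurons (2.63 CPM per kb), Cntnap2 has 2.06 there and 1.90 in Nxph1+ interneurons, where batches overlap, and Cntnap4 is dark there and bright in Nxph1+ interneurons (1.32).

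Strain differences of the members were tested in each cluster with edgeR over all genes, with batch as a block. A member can pass the expression filter through the strains in which it is high, so the counts of called members are given as a description beside the share of all genes, and nothing is read from them. In Drd1+ neurons 9 of 9 tested members differed among strains at an adjusted p under 0.05, where 61.7% of all genes tested did. In Drd2+ neurons 9 of 9 did, where 55.9% of all genes did. With a span between the highest and lowest strain of at least 1 on the log2 scale also required, 4 and 5 members were called in these clusters, where 25.1% and 23.3% of all genes were. The median span between the highest and lowest strain was 0.96 on the log2 scale for the members in Drd1+ neurons and 1.24 in Drd2+ neurons, beside 0.65 and 0.64 for all genes.

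Of the 10 members 4 passed the expression filter in oligodendrocytes, 3 in astrocytes (Cntn4 included) and 1 in macrophages. Cntn3 passed in oligodendrocytes through its high strains. In oligodendrocytes 3 of 4 members that passed the expression filter differed, where 34.8% of all genes did: Cntn3, Cntn4 and Cntnap2 were called and Cntn5 was not (adjusted p = 0.914). In astrocytes Cntnap2 was called (adjusted p = 0.0377) and Cntn5 was not (0.225), where 21.5% of all genes were. In the second Drd1+ cluster 7 of 8 tested members differed, where 17.3% of all genes did, and Cntnap5b was not called (0.0647). Cntnap5b was called there by DESeq2 (DESeq2 adjusted p = 0.0104), and by edgeR without the filter (0.00287), without the batch term (0.0476) and without batch 2 (3.51e-05). The Cntnap2 call was lost there with DESeq2 (DESeq2 adjusted p = 0.0506). With edgeR it was lost without the batch term (edgeR adjusted p = 0.0833), batch 1 (0.0848) or batch 2 (0.238). The Cntn6 call was lost without the batch term (edgeR adjusted p = 0.0811), batch 3 (0.162) or batch 4 (0.0515). With 1 batch left out 4 to 6 members were called, and 4 without batch 3, where 12.6% of all genes were.

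In the other 4 tested clusters no member was called by edgeR's strain term. Median log2 spans of the tested members were 1.02 in Nxph1+ interneurons, 1.90 in endothelium, 2.66 in the polydendrocyte/oligodendrocyte cluster and 0.79 in macrophages. For all genes they were 0.75, 0.91, 1.09 and 0.84. Libraries there held medians of 28.5, 25, 15 and 81.5 nuclei, against 456.5 in Drd1+ neurons. A missing call in these libraries does not show that the strains were alike. In Nxph1+ interneurons 0 of 10 members were called, with 4 at an unadjusted p under 0.05, where 1.53% of all genes were called. In endothelium it was 0 of 9 with 3 unadjusted, where 3.23% of all genes were. In the polydendrocyte/oligodendrocyte cluster it was 0 of 6 with 3 unadjusted, where 1.24% were. Neuron markers summed to 2160 CPM in that cluster, against 1409 of oligodendrocyte precursor and 5985 of oligodendrocyte markers. The part of neuron markers in its member levels, spans and calls was not tested. In macrophages 0 of 1 was called, with 0 unadjusted, where 24.8% were. DESeq2 called 2, 1 and 1 members in Nxph1+ interneurons, endothelium and the polydendrocyte/oligodendrocyte cluster, where it called 2.73%, 4.83% and 3.57% of all genes, and 0 in macrophages, where it called 21.3%. Without the filter on low counts edgeR called 3, 3 and 4 members in those same 3 clusters, where 2.12%, 2.55% and 1.17% of all genes were called.

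To show which strains departed, the difference of every strain from the average of the rest was tested with edgeR. Here p was adjusted over the genes of each strain's contrast, and not over the 8 strains. Of the pairs in Drd1+ neurons, 42 of 72 (a member and a strain each) were called, 24 higher and 18 lower, where 20.4% of all pairs were. A/J had 6 of 9 members higher and 0 lower, where 10.6% of all genes were higher and 6.66% lower. C57BL/6 had 6 and 0 (all genes: 8.01% and 5.93%), and NZO/HlLtJ 5 and 1 (11% and 8.74%). PWK/PhJ had 1 higher and 5 lower (17% and 17.3%), WSB/EiJ 1 and 4 (9.66% and 7.3%), and CAST/EiJ 2 and 4 (16.8% and 15.9%). NOD/ShiLtJ had 1 and 3 (9.4% and 6.48%), and 129S1/SvImJ 2 and 1 (7.72% and 4.58%). In Drd2+ neurons 41 of 72 were called (23 higher, 18 lower), where 17.7% of all pairs were. In oligodendrocytes it was 16 of 32 (7 higher, 9 lower), where 10.5% were, and Cntn3 and its filter bear on that count too. In the second Drd1+ cluster 14 of 64 pairs were called (7 higher, 7 lower), where 3.7% of all pairs were. No pair was called in astrocytes (0 of 16), Nxph1+ interneurons (0 of 80), macrophages (0 of 8) or the polydendrocyte/oligodendrocyte cluster (0 of 48). In endothelium, where no member's strain term was called, 1 of 72 pairs was (all pairs: 0.604%). That pair was Cntn4 in CAST/EiJ, at -1.24 (SE 0.35, edgeR adjusted p = 0.0457) on the log2 scale. CAST/EiJ had the lowest endothelial mean of 6 of the 10 members, Cntn3, Cntn4, Cntn5, Cntn6, Cntnap2 and Cntnap5b. Its sum of neuron markers there was 1604 CPM, against 2548 to 3327 in the other strains, and the part of these markers in the Cntn4 call was not tested. The contrasts of a member share its libraries and are not independent of one another.

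**Figure D2:**
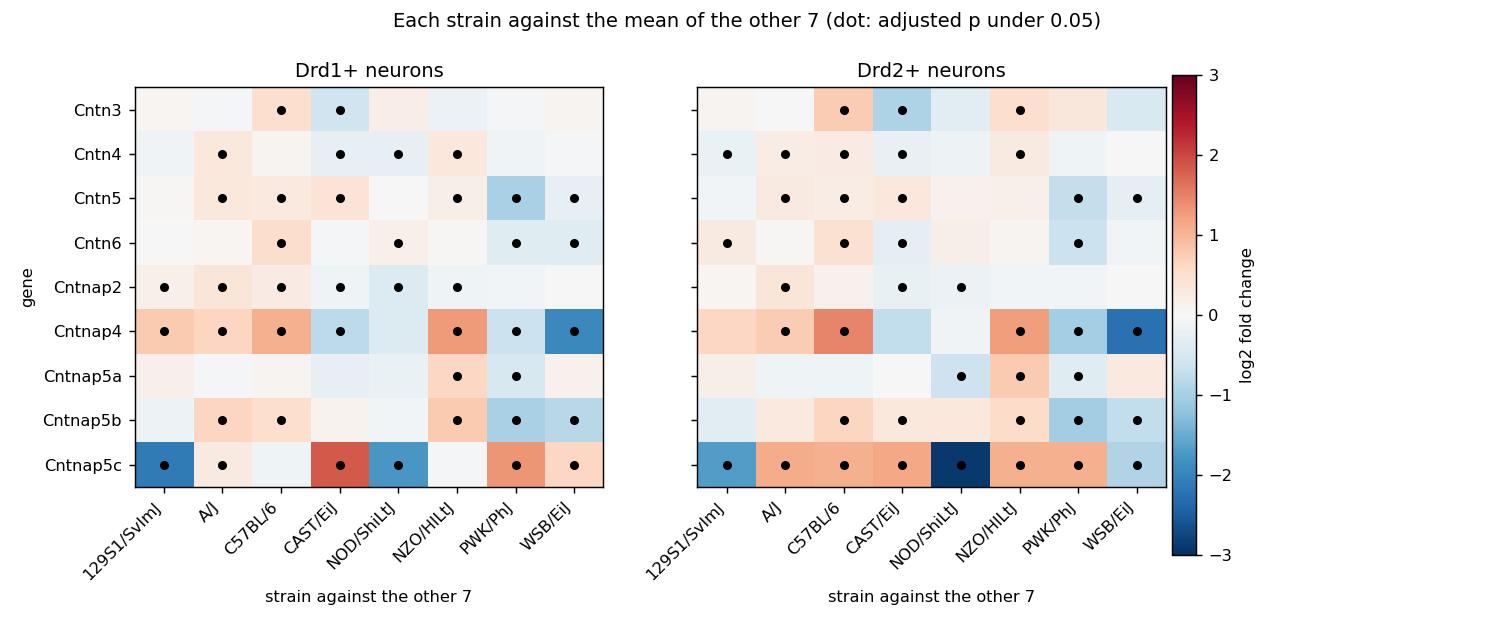
Log2 difference of each strain from the average of the rest (colour) for each tested member (rows) in Drd1+ and Drd2+ neurons, without Cntnap3. Dots mark an edgeR adjusted p under 0.05. In Drd1+ neurons 24 pairs were higher and 18 lower by the test.

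Cntn3, a contactin that binds Ptprg, split the strains in oligodendrocytes, the myelinating glia. It stood at 331 ± 54.4 CPM (SD, n = 4, as for all values by strain) in A/J, 306 ± 18.1 in 129S1/SvImJ, 273 ± 75.7 in C57BL/6 and 196 ± 45.6 in WSB/EiJ. It was near 0 in the other 4 strains, at 10.8 ± 7.73 in NZO/HlLtJ, 7.89 ± 7.14 in PWK/PhJ, 2.35 ± 1.89 in NOD/ShiLtJ and 2.33 ± 2.90 in CAST/EiJ.

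By mouse, Cntn3 in oligodendrocytes was 279.9, 359.8, 393 and 291 CPM in A/J, 312, 299.7, 327 and 285 in 129S1/SvImJ, 226, 348, 326 and 192 in C57BL/6 and 262, 174, 189 and 159.8 in WSB/EiJ. The NZO/HlLtJ mice had 6.75, 20.7, 12.6 and 2.99, the PWK/PhJ mice 6.65, 4.54, 18.2 and 2.13, the NOD/ShiLtJ mice 2.09, 2.75, 0 and 4.57 and the CAST/EiJ mice 3.32, 5.98, 0 and 0. These 16 mice ranged from 0 to 20.7 CPM. No mouse of the 4 high strains overlapped any mouse of the 4 low strains. The low strains rest on few reads: NZO/HlLtJ had 22 counts over 4 mice, PWK/PhJ 12, NOD/ShiLtJ 9 and CAST/EiJ 5. The strain term was called (edgeR adjusted p = 6.83e-29), and it was also called when no filter was applied.

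Cntn3 had a UMI in 28.4% of A/J oligodendrocyte nuclei, against 0.403% in CAST/EiJ, 0.434% in NOD/ShiLtJ, 1.11% in PWK/PhJ and 1.45% in NZO/HlLtJ. The shares in other glia, over all strains, were 1.03% in astrocytes and 0.986% in macrophages, with median depths of 2220.5 and 1432 UMIs against 1640 in oligodendrocytes. CAST/EiJ and NOD/ShiLtJ lay below both shares, and PWK/PhJ and NZO/HlLtJ slightly above them. Both shares include the strains high in oligodendrocytes. Oligodendrocyte markers summed to 3399 CPM in astrocytes and 4032 in macrophages, against 17928 in oligodendrocytes, and their part in both shares was not tested. Thinned to 1000 UMIs per nucleus, the A/J share was 20.4% and the CAST/EiJ share 0.165%. Neuron marker sums in oligodendrocytes were 237 to 289 CPM over the strains, and their part in the result was not tested.

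In neurons Cntn3 was present in every strain, and the difference between clusters was not tested for it outside projection neurons. In Drd1+ neurons C57BL/6 was highest at 247 ± 25.5 CPM and CAST/EiJ lowest at 127 ± 20.9 (edgeR adjusted p = 4.00e-04). In Drd2+ neurons the same strains held the extremes, at 248 ± 20.6 and 89.0 ± 20.7 CPM. NOD/ShiLtJ, at 2.35 ± 1.89 CPM in oligodendrocytes, had 207 ± 21.7 CPM in Drd1+ neurons. In the second Drd1+ cluster 129S1/SvImJ was highest at 377 ± 78.1 and NOD/ShiLtJ lowest at 87.2 ± 29.5.

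Cntn4, the contactin that binds the amyloid precursor protein, was picked on its level in astrocytes. There it was 981 ± 69.3 CPM in CAST/EiJ, and the means of the other 7 strains were 8.997 to 27.9 CPM. The CAST/EiJ mice had 948, 1084, 947 and 943 CPM, and no other mouse exceeded 35.3. A UMI was found in 62.2% of CAST/EiJ astrocyte nuclei, against 1.92 to 4.50% in the other strains, and in 47.3% of CAST/EiJ nuclei thinned to 1000 UMIs. Astrocyte markers summed to 4535 CPM in CAST/EiJ astrocytes and 3166 to 3818 in the others. Neuron markers there summed to 477 CPM in CAST/EiJ, the highest of 310.0 to 477 over strains, and the part of either list in the result was not tested. In macrophages, over all strains, the share with a Cntn4 UMI was 2.58%, at a median of 1432 UMIs against 2090 in CAST/EiJ astrocytes.

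In oligodendrocytes, which the choice did not use, Cntn4 was also highest in CAST/EiJ, at 313 ± 25.5 CPM, and NZO/HlLtJ followed at 191 ± 34.8. These values by mouse were singled out after they were seen. The CAST/EiJ mice had 314, 347, 286 and 304 CPM and the NZO/HlLtJ mice 225, 216, 169 and 154, with no overlap. A/J stood at 94.6 ± 36.3 and WSB/EiJ at 50.6 ± 7.53, while the other 4 strains had means of 18.7 to 25.0 CPM. A Cntn4 UMI was found in 30.3% of CAST/EiJ, 17.4% of NZO/HlLtJ and 2.86% of PWK/PhJ oligodendrocyte nuclei. The strain term was called (edgeR adjusted p = 6.29e-35), with CAST/EiJ above the average of the other 7 strains by 2.89 (SE 0.12, edgeR adjusted p = 1.80e-32). NZO/HlLtJ, second in oligodendrocytes, had 25.3 ± 8.04 CPM in astrocytes.

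In projection neurons, where Cntn4 had its highest levels, the span over strains was 0.50 on the log2 scale in Drd1+ and 0.44 in Drd2+ neurons, against 4.03 in oligodendrocytes. Strain means ran from 1156 to 1640.0 CPM in Drd1+ neurons (edgeR adjusted p = 2.10e-06) and from 1373 to 1859 CPM in Drd2+ neurons.

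**Figure D3:**
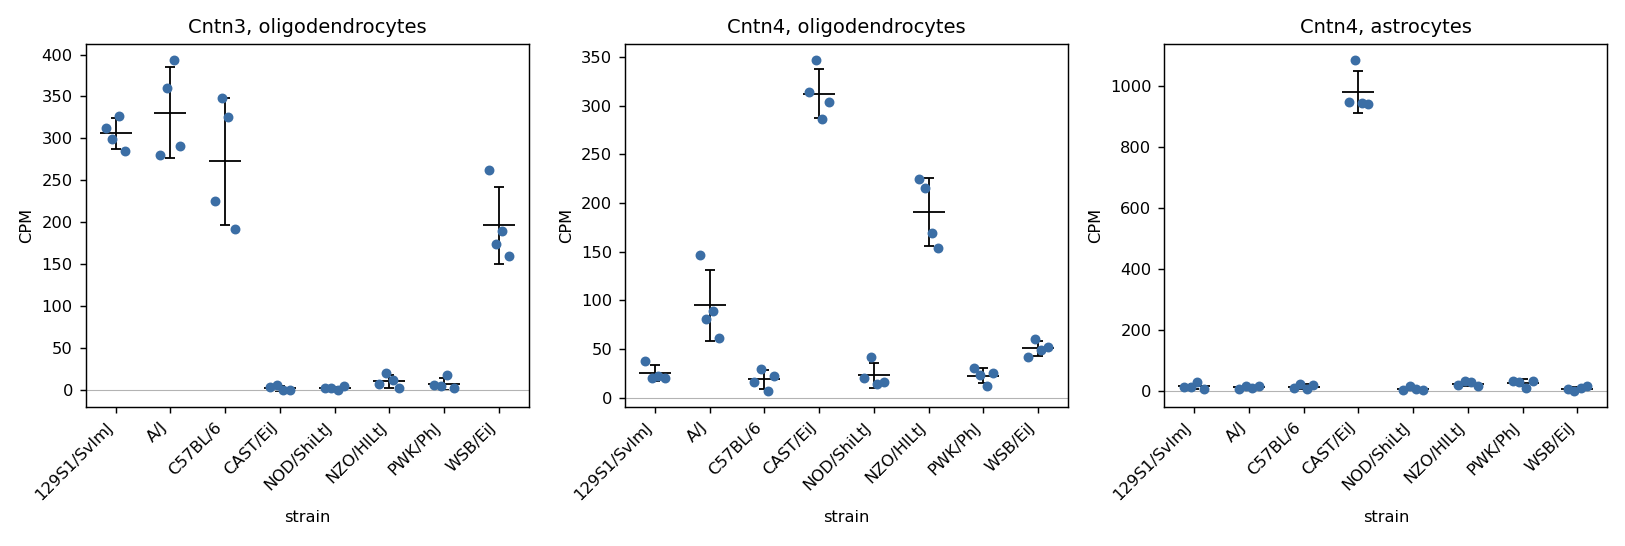
Level by mouse (points), with strain mean (line) and SD (bar, n = 4), in CPM, of Cntn3 and Cntn4 in oligodendrocytes and of Cntn4 in astrocytes. Cntn3 is at 331 CPM in A/J and 2.33 in CAST/EiJ oligodendrocytes, and Cntn4 at 981 CPM in CAST/EiJ astrocytes.

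Cntn5, a contactin known from auditory and visual circuits, was lowest in PWK/PhJ. In Drd1+ neurons the PWK/PhJ mice had 1697, 1836, 1759 and 1676 CPM and the CAST/EiJ mice, the highest, 3946, 3975, 3879 and 4225, with no overlap. PWK/PhJ differed from the average of the other 7 strains by -0.96 (SE 0.07, edgeR adjusted p = 1.86e-13) on the log2 scale, and CAST/EiJ by 0.41 (SE 0.06, edgeR adjusted p = 2.21e-06). The same strains were lowest and highest in Drd2+ neurons, at 2134 ± 187 and 4028 ± 175 CPM. In the second Drd1+ cluster the order was another, with NZO/HlLtJ highest at 2241 ± 118 CPM, WSB/EiJ lowest at 1108 ± 57.6 and CAST/EiJ at 1265 ± 166. The difference between clusters was not tested for that pair.

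Cntn6, a ligand of Notch and partner of Chl1, was highest in C57BL/6 in Drd1+ neurons, at 193, 191, 202 and 225 CPM by mouse. PWK/PhJ and WSB/EiJ were lowest, at 118 ± 8.15 and 118 ± 8.07 CPM. C57BL/6 differed from the others by 0.52 (SE 0.05, edgeR adjusted p = 1.33e-10) and PWK/PhJ by -0.37 (SE 0.06, edgeR adjusted p = 7.92e-07) on the log2 scale.

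Cntnap2, the Kv1 channel partner, was highest in A/J in Drd1+ neurons and lowest in NOD/ShiLtJ, at 4603 ± 532 and 2853 ± 152 CPM. By mouse A/J had 4872, 5059.8, 3849.9 and 4629 and NOD/ShiLtJ 2968, 2959, 2641 and 2842. The differences from the average of the other 7 strains were 0.37 (SE 0.05, edgeR adjusted p = 2.92e-08) for A/J and -0.41 (SE 0.05, edgeR adjusted p = 1.82e-08) for NOD/ShiLtJ. In oligodendrocytes the strain term of Cntnap2 was called (edgeR adjusted p = 0.0381), and the call was lost with DESeq2 (DESeq2 adjusted p = 0.106), without the filter (0.0717), without the batch term (0.370) and without batch 1 (0.784) or batch 2 (0.0917). A/J astrocytes had 92.6 ± 44.9 CPM and those of PWK/PhJ 29.6 ± 20.8. Over all strains Cntnap2 stood at 52.0 ± 11.6 CPM in astrocytes and 40.8 ± 11.4 in oligodendrocytes, against 3784 ± 259.7 in Drd1+ neurons. Neuron markers summed to 383 CPM in astrocytes and 282 in oligodendrocytes, against 7269.6 in Drd1+ neurons, and to 359 CPM in A/J and 414 in PWK/PhJ astrocytes. Their part in the glial levels and calls of Cntnap2 was not tested. In astrocytes the edgeR call at 0.0377 was lost without the batch term (adjusted p = 0.0656) and without batch 3 (0.0535) or batch 4 (0.259).

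Cntnap3 was picked on its strain patterns in projection neurons. In Drd1+ neurons the strain means ran PWK/PhJ 251, C57BL/6 219, NZO/HlLtJ 190.0, A/J 162, NOD/ShiLtJ 136, CAST/EiJ 130.5, 129S1/SvImJ 124 and WSB/EiJ 124 CPM. The PWK/PhJ mice had 198, 271, 240.0 and 296 CPM and overlapped those of C57BL/6, at 212, 240.4, 198 and 226. In Drd2+ neurons A/J was highest at 45.6 ± 5.37 CPM and NZO/HlLtJ followed at 40.6 ± 6.08, while PWK/PhJ and C57BL/6, highest in Drd1+ neurons, were lowest at 10.8 ± 4.65 and 7.52 ± 3.28. The A/J mice had 45.9, 38.1, 50.6 and 47.9 CPM, the PWK/PhJ mice 6.10, 7.50, 13.9 and 15.5 and the C57BL/6 mice 9.18, 7.90, 2.81 and 10.2. The Drd2+ over Drd1+ log2 ratio was -4.96 ± 0.72 in C57BL/6 and -4.61 ± 0.53 in PWK/PhJ. In Nxph1+ interneurons, which were not used for the choice, Cntnap3 was not called (edgeR adjusted p = 0.0509). It was called there by DESeq2 (DESeq2 adjusted p = 0.0279) and by edgeR without the filter (0.00183).

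**Figure D4:**
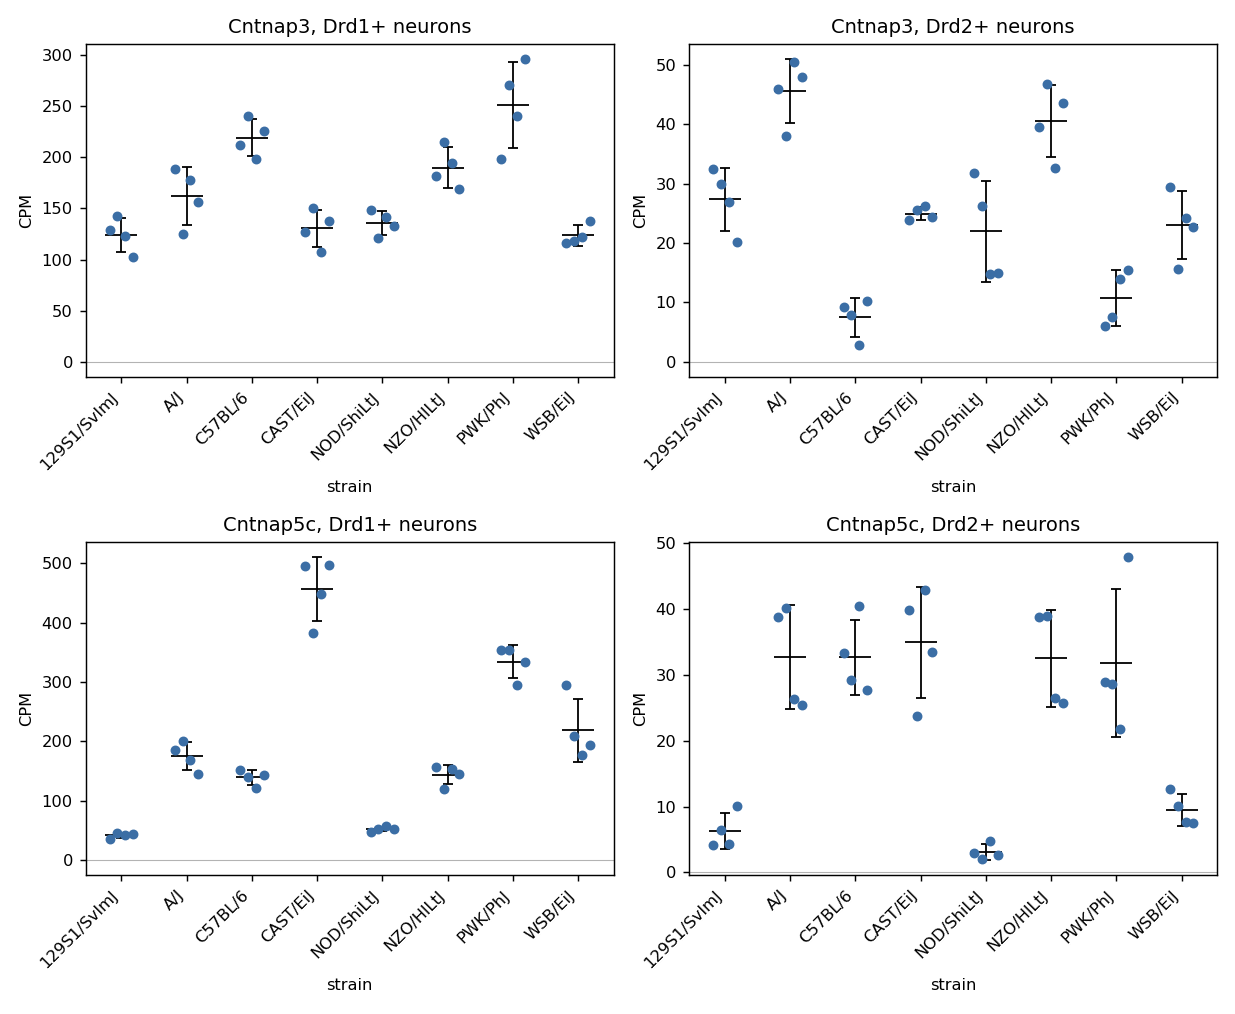
Level by mouse (points), with strain mean (line) and SD (bar, n = 4), in CPM, of Cntnap3 and Cntnap5c in Drd1+ and Drd2+ neurons. Cntnap3 is highest in PWK/PhJ in Drd1+ neurons (251 CPM) and in A/J in Drd2+ neurons (45.6 CPM).

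Cntnap4, scarce in projection neurons, was highest in NZO/HlLtJ at 11.7 ± 2.23 CPM and lowest in WSB/EiJ at 1.63 ± 0.786 in Drd1+ neurons. By mouse NZO/HlLtJ had 14.2, 8.88, 12.55 and 11.1 and WSB/EiJ 1.64, 1.88, 0.559 and 2.43. The differences from the others were 1.27 (SE 0.19, edgeR adjusted p = 1.61e-06) and -1.93 (SE 0.30, edgeR adjusted p = 4.19e-06) on the log2 scale. These levels rest on few reads, with 716 counts over the 32 mice. A UMI was found in 5.54% of NZO/HlLtJ and 0.925% of WSB/EiJ nuclei. Interneuron markers summed to 39.1 CPM in Drd1+ neurons, and their part in these levels was not tested.

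The reads of the 3 Cntnap5 paralogs could be shared among them, and how the counting treated such reads is not given in the sources used here. Cntnap5a in Drd1+ neurons was highest in NZO/HlLtJ, at 879, 763, 754 and 672 CPM by mouse, and lowest in PWK/PhJ at 294, 439.5, 339.7 and 505. Cntnap5b in Drd1+ neurons had the same highest and lowest strain, NZO/HlLtJ at 355 ± 29.1 CPM and PWK/PhJ at 122 ± 34.8. Cntnap5b in Drd2+ neurons was highest in C57BL/6 and NZO/HlLtJ, at 458 ± 49.3 and 430.2 ± 74.5 CPM, and lowest in PWK/PhJ at 163 ± 27.2. By mouse C57BL/6 had 429.9, 482, 407 and 515 and PWK/PhJ 144, 147, 159 and 203, with no overlap. In NZO/HlLtJ both genes were above the average of the other 7 strains, by 0.61 (SE 0.09, edgeR adjusted p = 9.83e-06) for Cntnap5a in Drd1+ neurons and 0.55 (SE 0.11, edgeR adjusted p = 9.25e-04) for Cntnap5b in Drd2+ neurons, on the log2 scale.

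Cntnap5c had the widest span over strains among the 9 members tested in Drd1+ neurons, 3.47 on the log2 scale. CAST/EiJ mice had 495, 383, 448 and 498 CPM and PWK/PhJ mice 353, 354, 294 and 335. WSB/EiJ, A/J, NZO/HlLtJ and C57BL/6 had means of 219, 175, 144 and 139 CPM. NOD/ShiLtJ mice had 47.2, 52.6, 56.8 and 51.8 and 129S1/SvImJ mice 34.6, 45.4, 41.6 and 43.7. The log2 differences from the average of the other 7 strains were 1.84 (SE 0.08, edgeR adjusted p = 1.41e-16) for CAST/EiJ and -2.13 (SE 0.12, edgeR adjusted p = 7.65e-14) for 129S1/SvImJ. In Drd2+ neurons, where the gene was 8.50-fold lower than in Drd1+ neurons, 5 strains lay close together at 31.8 to 35.0 CPM, while WSB/EiJ, 129S1/SvImJ and NOD/ShiLtJ had 9.496, 6.25 and 3.08. These Drd2+ values were singled out after they were seen. Drd1+ neuron markers (Drd1, Tac1 and Pdyn) summed to 63.8 CPM in Drd2+ neurons, against 581 in Drd1+ neurons. Their part in the Drd2+ levels of Cntnap5c and of Cntnap3 was not tested.

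For the members not yet described in Drd2+ neurons, the strains at the extremes were in part those of Drd1+ neurons. Cntn6 was highest in C57BL/6 (222 ± 17.9 CPM) and lowest in PWK/PhJ (113 ± 11.3), as in Drd1+ neurons. Cntnap2 was highest in A/J (5661 ± 524) and lowest in CAST/EiJ (3987 ± 339.9). Cntnap4 was highest in C57BL/6 (8.97 ± 0.991) and lowest in WSB/EiJ (1.14 ± 0.986). Cntnap5a was highest in NZO/HlLtJ (649 ± 75.0) and lowest in NOD/ShiLtJ (276 ± 24.5).

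The second Drd1+ cluster carried eccentric projection neuron markers (Otof, Casz1 and Col11a1) at 569.6 CPM, against 17.1 in the large Drd1+ cluster. Besides Cntn3 and Cntn5, which were given above, Cntn4 was highest there in C57BL/6 (573 ± 123 CPM) and lowest in PWK/PhJ (157 ± 82.5). Cntnap5a was highest in WSB/EiJ (407 ± 76.2) and lowest in PWK/PhJ (90.2 ± 81.1). Cntnap5c was highest in A/J (85.6 ± 46.9) and lowest in NOD/ShiLtJ (4.35 ± 5.57). Libraries of this cluster held a median of 47.5 nuclei. The Cntn4 call was lost without batch 3 (edgeR adjusted p = 0.0990), and that of Cntnap5a without batch 2 (0.0826) or batch 3 (0.0741).

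Drd1+ neurons project along the direct pathway and Drd2+ neurons along the indirect pathway of the striatum. Over all 32 mice Cntnap5b was higher in Drd2+ neurons in 32 mice (mean log2 ratio 0.49 ± 0.26, SD) as were Cntnap2 (0.31 ± 0.11) and Cntn4 (0.24 ± 0.09). Cntnap5c and Cntnap5a were higher in Drd1+ neurons in every mouse, with ratios of -3.15 ± 0.92 and -0.40 ± 0.22. So was the picked gene Cntnap3 (-2.91 ± 1.19), as a description. The strain differences themselves differed between the neuron types for 8 of 9 members tested, by edgeR's strain by cluster term with the mouse as a block, where 4.58% of all genes did. Adjusted p was 1.43e-11 for Cntnap5c, 3.80e-09 for Cntnap2 and 4.49e-09 for Cntnap5a, and the largest of the 8 was 0.00236 for Cntnap5b. What part the Drd1+ marker counts in Drd2+ neurons had in these calls was not tested. The Cntnap5b call was lost without batch 2 (adjusted p = 0.0710) or batch 3 (0.107). Without the mouse as a block 2 of the 9 members were called, and 0.696% of all genes. Cntnap4 was not called (adjusted p = 0.949). Cntn3 went from -0.71 ± 0.33 in WSB/EiJ and -0.69 ± 0.14 in NOD/ShiLtJ to 0.34 ± 0.18 in NZO/HlLtJ.

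**Figure D5:**
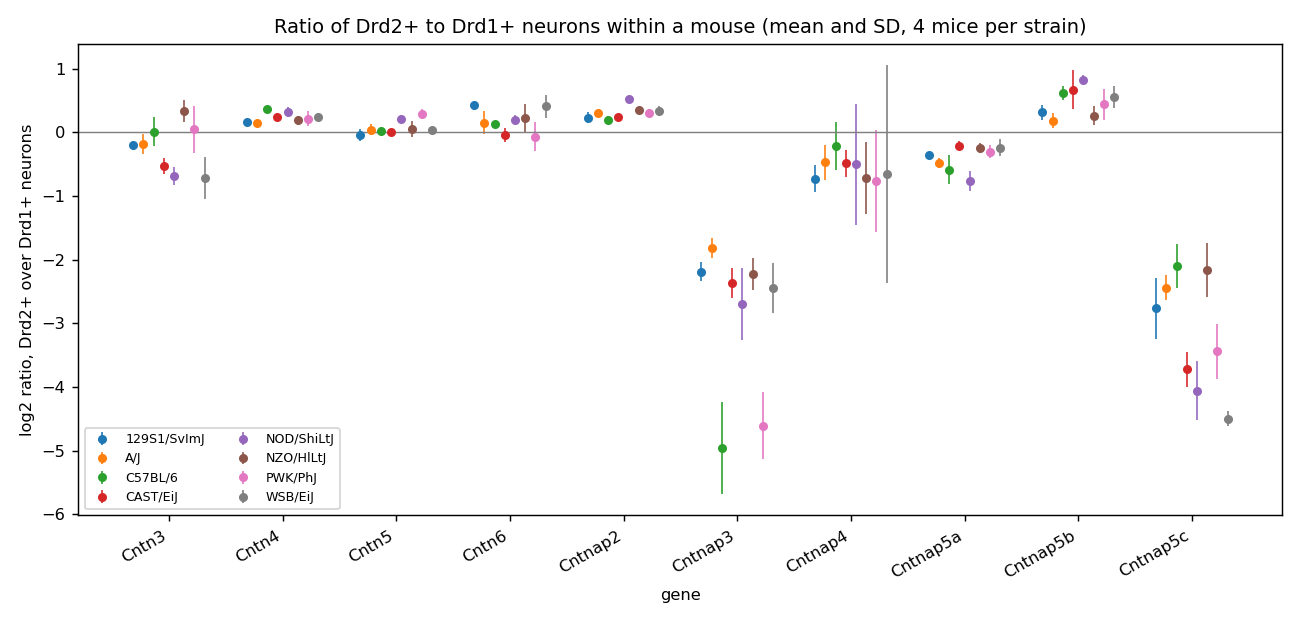
Log2 ratio of Drd2+ to Drd1+ levels within each mouse, as strain mean (point) and SD (bar, 4 mice), for the 10 members. Cntnap5c lies below 0 in all 32 mice (mean -3.15), and Cntn3 runs from -0.71 in WSB/EiJ to 0.34 in NZO/HlLtJ.

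Genes whose levels over the 32 mice were most like those of the picked pairs were taken by Pearson correlation of log2 CPM with batch means removed, given without p. The mice share strains and libraries. For Cntnap3 in Drd1+ neurons these were Hjurp (0.81), Nexn (0.79), Plk5 (0.77), Sms (0.74) and Hdhd2 (0.73), and in Drd2+ neurons Cfap54 (0.82), Ankdd1a (0.78), Tnks (0.78), Mtus1 (0.75) and Phldb2 (0.75). For Cntn4 in astrocytes they were Rubcnl (0.94), Tas1r1 (0.93), B530045E10Rik (0.89), Nat8f1 (0.88) and Gm9925 (0.85). Rank correlations of these 5 genes ran from 0.06 to 0.61, and CAST/EiJ is the one strain that sits apart in Cntn4.

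Of the other contactin genes, Cntn1 in oligodendrocytes was called, at 197 ± 38.2 CPM in CAST/EiJ and means of 42.2 to 81.5 in the other strains. Cntn2, the juxtaparanodal contactin, stood at 376 ± 25.3 CPM in oligodendrocytes and was not called there by edgeR (edgeR adjusted p = 0.0583). Of Cntn1, Cntn2 and Cntnap1, 2 of 3 were called in Drd1+ neurons, 3 of 3 in Drd2+ neurons and 1 of 3 in oligodendrocytes, where 61.7%, 55.9% and 34.8% of all genes were. DESeq2 called 2, 3 and 2 of these genes in the same 3 clusters, where it called 57.8%, 52.2% and 30.5% of all genes. In the other clusters with a tested gene of these 3, edgeR and DESeq2 called none. At an unadjusted p under 0.05 there was 1 of 1 in endothelium, and 0 of 2 in astrocytes, in the second Drd1+ cluster and in Nxph1+ interneurons each, and 0 of 1 in the polydendrocyte/oligodendrocyte cluster. Of all genes edgeR called 3.23%, 21.5%, 17.3%, 1.53% and 1.24% there. Of 16 ligands, receptors and anchoring partners, 14 of 16 tested were called in Drd1+ neurons (61.7% of all genes), 13 of 16 in Drd2+ neurons (55.9%), 10 of 14 in oligodendrocytes (34.8%) and 7 of 15 in astrocytes (21.5%). In the second Drd1+ cluster 3 of 16 were called (17.3%), in macrophages 2 of 4 (24.8%) and in endothelium 1 of 11 (3.23%). None of 14 was called by edgeR or DESeq2 in Nxph1+ interneurons, with 1 at an unadjusted p under 0.05 (all genes called by edgeR: 1.53%). None of 10 was called by either in the polydendrocyte/oligodendrocyte cluster, with 1 unadjusted (1.24%). Median spans of the partners were 0.56 in Drd1+ neurons and 0.79 in oligodendrocytes on the log2 scale, beside 0.65 and 0.68 for all genes. Epb41l3, which anchors Cntnap proteins to the cytoskeleton, was highest in A/J oligodendrocytes at 448 ± 48.0 CPM and lowest in CAST/EiJ at 99.0 ± 8.18. Kcna1, a Kv1 channel, was highest in CAST/EiJ oligodendrocytes at 601 ± 89.5 and lowest in WSB/EiJ at 222 ± 103.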

How the data were processed

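Nuclei from striatum of 32 mice (8 strains, 4 batches) were read by 10x Multiome. The deposited matrices hold raw whole-number counts of UMIs per gene and nucleus. Per the submitters' processing notes, Cell Ranger ARC 2.0.0, bcl2fastq 2.20.0.422 and the mm10/GRCm38 build were used, and how reads shared by paralogs were counted is not given in the sources used here. The authors filtered nuclei (200 to 7500 genes, under 15% mitochondrial), removed doublets, assigned strains by genotype and deposited cluster names, strains and batches, per the labels' protocols; these were used as given. Other columns of the deposited cell table carry barcodes and labels rather than measurements.

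Counts were summed per mouse and cluster, for libraries of at least 10 nuclei. Each of 9 clusters with at least 3 mice in every strain was fitted with edgeR 4.0.16 (R 4.3.3; TMM scaling, filterByExpr, robust quasi-likelihood F test, Benjamini-Hochberg over all tested genes) with strain and batch. Batch is a block by design, since each batch is 1 pool with 1 mouse of every strain. The strain by cluster test in Drd1+ and Drd2+ neurons used the mouse as a block. CPM use TMM-scaled totals, log2 ratios add 0.5 counts, and SEs of contrasts come from the log2 fold change over the square root of F. Alternatives were DESeq2 1.42.0, RLE scaling, no filter, no block, 20 nuclei and leaving out each batch. The fits were also run on simulated counts, and no result of that run is given here. Those counts held no batch or mouse effect, so the run cannot check the blocks.

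The members and lists were chosen with earlier results of these data known. All 10 members are named. Values by mouse are given for the picked pairs and, for each other member, in the cluster with the largest F statistic. Promoter sequences and gene positions are from RefSeq, GRCm38.p6. Peaks are the deposited index of regions, read for position alone.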

Additional observations from a re-analysis of the deposited data

Results flagged for a closer look

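In 6 of 104 groups of 4 mice 1 mouse lay apart from the other 3 by Dixon's test, where chance gives about 1 in 20 groups. The groups include those of the picked pairs, where a flag only describes the spread within a strain. Cntn4 in astrocytes of CAST/EiJ was 1084 CPM in batch 2, and 943 to 948 in the other 3 mice. Cntn6 in Drd1+ neurons of 129S1/SvImJ was 138 CPM in batch 4, and 149.6 to 151 in the other 3 mice. Cntn6 in Drd1+ neurons of CAST/EiJ was 156 CPM in batch 4, and 140.1 to 142 in the other 3 mice. Cntnap2 in Drd1+ neurons of NZO/HlLtJ was 3884 CPM in batch 1, and 3173 to 3233 in the other 3 mice. Cntnap5a in Drd1+ neurons of C57BL/6 was 607 CPM in batch 3, and 531 to 543 in the other 3 mice. Cntn4 in oligodendrocytes of 129S1/SvImJ was 37.5 CPM in batch 1, and 19.8 to 22.2 in the other 3 mice.

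The strain differences of 8 members differed between Drd1+ and Drd2+ neurons by edgeR's strain by cluster test, which called 4.58% of all genes, with these adjusted p: Cntn3 (2.30e-04), Cntn4 (1.93e-04), Cntn5 (8.27e-09), Cntn6 (1.52e-06), Cntnap2 (3.80e-09), Cntnap5a (4.49e-09), Cntnap5b (0.00236) and Cntnap5c (1.43e-11). Without the mouse as a block 6 of these calls were lost (Cntn3, Cntn4, Cntn5, Cntnap2, Cntnap5a and Cntnap5b), and that of Cntnap5b also without batch 2 or batch 3.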

How the results depend on the processing

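No called contrast of the pairs described by mouse reversed its sign under the alternatives run, and direction was not checked for other results. Of the levels and shares of nuclei, 127 stayed within their SD of the main value and 14 did not. Most of these alternatives left out 1 batch, which cannot move a mean of 4 values by more than their SD. The count of 127 is therefore no measure of stability. Over all alternatives and single genes, 465 strain terms stayed on their side of the threshold, 21 gained a call and 18 lost it, while 434 contrasts stayed called and 38 did not, and 64 strain by cluster terms stayed and 8 did not. Requiring a span of at least 1 on the log2 scale left 4 called members in Drd1+ neurons and 5 in Drd2+ neurons, from 9 in each, and 25.1% and 23.3% of all genes. Without the filter on low counts endothelium and Nxph1+ interneurons had 3 called members each and the polydendrocyte/oligodendrocyte cluster had 4 (all genes: 2.55%, 2.12% and 1.17%); with DESeq2, Nxph1+ interneurons, endothelium and that cluster had 2, 1 and 1, from 0 in each (all genes: 2.73%, 4.83% and 3.57%); the cause was not tested. Without the replicate block, the batch term, 0 members were called in astrocytes (from 1; all genes: 18%, from 21.5%), and without the mouse as block 2 by the strain by cluster test (from 8; all genes: 0.696%, from 4.58%). Leaving out 1 batch at a time gave 0 to 1 members in astrocytes (all genes: 13.9 to 19.9%), 4 to 6 in the second Drd1+ cluster (from 7; 4 without batch 3; 11.3 to 13.5%), 0 to 1 in Nxph1+ interneurons (0.69 to 1%) and 0 to 2 in endothelium (1.5 to 2.83%). A minimum of 20 nuclei was not run in endothelium and the polydendrocyte/oligodendrocyte cluster, which then had too few mice. Of the clusters in which it was run, it left out libraries in Nxph1+ interneurons alone. Elsewhere it repeated the main fit, and the strain terms counted as staying include these repeats.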
